A study of Mus musculus with 6 samples.

Results

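Krüppel-like factors (KLFs) are transcription factors whose zinc fingers bind GC-rich and CACCC-type DNA. The members described here are the 10 genes Klf2, Klf3, Klf4, Klf5, Klf6, Klf7, Klf9, Klf10, Klf13 and Klf15, taken by name from a table of 48587 gene rows. The set was selected on measured values, because Klf2 was much higher in the Foxp1-deficient library of every equally numbered pair, so that contrast is described for all 10 members without a test and supports nothing. All 10 passed the low-count filter, which kept 14311 genes. The 7 other Klf genes of the table (Klf1, Klf8, Klf11, Klf12, Klf14, Klf16 and Klf17) were not part of the choice by name, and 5 of them could be tested.

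The measurements are counts of ribosome-associated RNA from mouse kidney, in 6 libraries of the same anti-HA pulldown. Controls were neonatal littermates of genotype Cdh16Cre;Foxp1fl/+;RiboTag (3 libraries), and Foxp1-deficient animals were Cdh16Cre;Foxp1fl/fl;RiboTag (3 libraries). Both groups therefore carried Cre, driven by the tubule cadherin gene Cdh16, the RiboTag allele that puts an HA tag on ribosomes of cells with Cre, and at least a single floxed Foxp1 allele. Foxp1 encodes a forkhead repressor. The treatment label read vehicle for all controls and chronic acid load for all Foxp1-deficient libraries, while the protocols describe no acid load, so genotype and treatment cannot be told apart. The labels do not say that libraries of a group came from separate animals, and the spread between them may be technical.

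Library totals ran from 9710048 to 18958196 counts. Values called CPM are counts divided by library size and multiplied up by a fixed factor, scaled by TMM factors, edgeR's correction for library composition, unless stated, and 3 counts correspond to 0.137 to 0.383 CPM. Values of a group are given in the order of libraries 1, 2 and 3. Libraries with the same number resembled each other across genotypes: for the median gene tested, 79.8% of the variance in log2 CPM lay between numbers and 5.6% between genotypes. The labelled cell type is the kidney tubular cell, yet several of its defining transcripts were near 0 in part of the libraries. Umod, the uromodulin gene of the thick ascending limb, had 0, 0 and 69.8 CPM across the controls, against 0.735, 0 and 75.6 with Foxp1 deficiency. Summed over 12 proximal tubule genes, the level ran from 40.6 to 955 CPM in controls and from 86.2 to 1013 in Foxp1-deficient libraries. Lrp2 of that list was not near 0 in any library, with 33.1, 32.5 and 101 against 52.5, 121 and 176 CPM. Collecting duct genes, mostly Krt7, summed to 253 to 840 CPM in controls and 443 to 2545 in Foxp1-deficient libraries. Foxp1 itself had 48.8, 30.8 and 35.9 CPM across the controls, against 34.6, 11.3 and 29.3 with Foxp1 deficiency, with a log2 fold change of -0.62 (SE 0.49) that did not pass edgeR's quasi-likelihood test (Benjamini-Hochberg adjusted p = 0.9998). That count covers all exons of the gene and all cells in the pulldown, so it is not a measure of the deleted exons alone.

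Klf2 and Klf4 are best known as flow-responsive factors. In endothelium, shear stress acts through the kinase ERK5 and the MEF2 factors to turn both genes on, and the cerebral cavernous malformation proteins hold that signal down. Klf2 also keeps lymphocytes quiescent and is a target of FoxO forkhead factors there, and Klf4 acts in epithelial barriers and in reprogramming to pluripotency. Other members answer to other inputs: Klf6 and Klf10 are rapidly induced genes, Klf10 by TGF-beta, while Klf9 and Klf15 are turned on by glucocorticoids. Klf5 is a factor of proliferating epithelia, and Klf3 is a repressor that recruits the CtBP proteins. Fewer cells of a type and less RNA per cell cannot be told apart in such bulk pulldowns.

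Klf2 lies on chromosome 8 (72319033 to 72321656, mm10, plus strand). It had 6.84, 37.8 and 17.2 CPM across the controls, against 65.0, 284 and 82.5 CPM with Foxp1 deficiency, from 103, 360 and 355 counts and 1150, 2225 and 1803 counts. Every Foxp1-deficient library lay above every control, and in both groups the library numbered 2 was the highest. The means were 20.6 ± 15.8 and 144 ± 122 CPM (SD, n = 3 each), a ratio of 6.97, and the ratios within pairs 1, 2 and 3 were 9.50, 7.50 and 4.78. The fitted log2 fold change was 2.80 (SE 0.82), or 2.79 (SE 0.24) once the replicate number entered as a block. The value without a block was 1.85 without Foxp1-deficient library 2 and 3.56 without control library 2. Of 14311 genes, 36 (0.252%) had a log2 fold change at least as high.

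Klf4 lies on chromosome 4 (55527143 to 55532466, mm10, minus strand). It had 13.2, 13.0 and 27.5 CPM across the controls, against 141, 41.7 and 104 CPM with Foxp1 deficiency. The groups again did not overlap, but here the library numbered 2 was the lowest of the Foxp1-deficient group, where it was the highest for Klf2. The means were 17.9 ± 8.32 and 95.8 ± 50.3 CPM (SD, n = 3 each), and the ratios within pairs were 10.7, 3.20 and 3.80. The fitted log2 fold change was 2.42 (SE 0.57), with 72 genes (0.503%) at least as high, and it was 2.34 (SE 0.39) with the block. Leaving out a library gave values from 2.02 (without Foxp1-deficient 1) to 2.88 (without control 3).

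The promoters of these 2 members are shown because their levels stood farthest apart between the groups. RefSeq start-site windows (GRCm38.p6, 250 bases before to 50 after the start, 300 in all) matched 8 of the 10 members, leaving out Klf5 and Klf10. The sequences below hold only bases before the RefSeq start and outside the gene as deposited, 221 for Klf2 (chr8:72318812-72319032, plus strand) and 250 for Klf4 (chr4:55532476-55532725, minus strand). Capitals mark matches to the MEF2 motif and to the forkhead letters TGTTTA or TGTTGAC.
Klf2: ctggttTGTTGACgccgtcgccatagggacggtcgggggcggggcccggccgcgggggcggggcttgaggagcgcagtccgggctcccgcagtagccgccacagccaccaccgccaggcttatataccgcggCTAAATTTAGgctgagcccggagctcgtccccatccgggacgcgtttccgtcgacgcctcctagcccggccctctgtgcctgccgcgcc
Klf4: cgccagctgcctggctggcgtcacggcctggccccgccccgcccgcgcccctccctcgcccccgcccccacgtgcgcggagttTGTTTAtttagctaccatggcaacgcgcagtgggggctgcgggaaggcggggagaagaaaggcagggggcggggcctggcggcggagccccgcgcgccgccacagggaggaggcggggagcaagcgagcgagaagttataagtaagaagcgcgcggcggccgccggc

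Both stretches were rich in G and C, at 71.5% of bases for Klf2 and 74.0% for Klf4. Motifs were searched on both strands of the whole windows, and their shares are over 32544 distinct windows of equal length. The MEF2 motif was found in Klf2 alone of the 8 matched members, as CTAAATTTAG at -118 to -109 from the start site, where 3.2% of windows hold it. Klf2 also held TGTTGAC at -244 to -238 (2.5% of windows). TGTTTA was found in Klf4, at -167 to -162, and in Klf9 (13.4% of windows). The GC box GGGCGG stood in 7 of the 8 (35.9% of windows), CCACCC in 4 (31.6%) and TGACG in 6 (20.9%). In Klf2, TGACG overlaps TGTTGAC. The CArG box of serum response factor was found in none of the 8 (1.6% of windows). The motifs were chosen after the sequences were seen, and such matches are letters in a window that do not show binding.

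**Figure D1:**
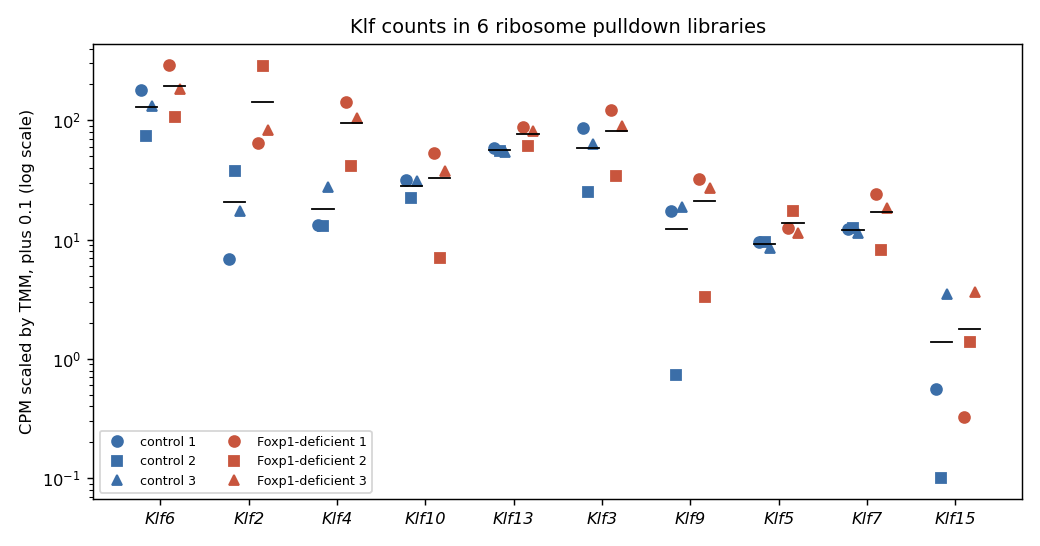
TMM-scaled CPM plus 0.1 (log axis) of 10 Klf genes; each point is a library, shape gives its number, colour its group, and bars are group means. Foxp1-deficient points lie above all control points for Klf2, Klf4, Klf5 and Klf13.

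Klf6 and Klf10 belong to the rapidly induced members. Klf6 (chromosome 13, 5861489 to 5870393, mm10) responds to tissue injury. It had 180, 74.4 and 131 CPM across the controls, against 293, 106 and 184 with Foxp1 deficiency. The groups overlapped, and within each group library 1 was high and library 2 low, while the Foxp1-deficient library was higher in all 3 pairs, by log2 differences of 0.70, 0.50 and 0.49. The log2 fold change was 0.60 (SE 0.51), or 0.57 (SE 0.13) with the block. Klf10 (chromosome 15, 38294413 to 38300707, mm10) had 31.5, 22.2 and 30.8 CPM across the controls, against 53.6, 6.88 and 37.8 with Foxp1 deficiency. Here pair 2 went the other way, with log2 differences of 0.76, -1.62 and 0.29. The fold change was 0.22 (SE 0.68) without the block and -0.13 (SE 0.51) with it, -0.34 without Foxp1-deficient library 1 and 0.70 without Foxp1-deficient library 2.

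Klf5 and Klf13 had the narrowest spread of the 10. Klf5 (chromosome 14, 99298691 to 99313405, mm10) had 9.43, 9.45 and 8.36 CPM across the controls, against 12.4, 17.2 and 11.3 with Foxp1 deficiency. Its groups did not overlap, and the log2 fold change was 0.59 (SE 0.45). Klf13 (chromosome 7, 63886351 to 63938915, mm10), a regulator in lymphocytes and heart, had 58.3, 55.8 and 54.1 CPM across the controls, against 88.1, 60.8 and 81.6 with Foxp1 deficiency. The lowest Foxp1-deficient library exceeded the highest control by little, at 60.8 against 58.3 CPM, and the groups overlapped when CPM were scaled to library totals. The log2 fold change was 0.46 (SE 0.32).

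Klf9 and Klf15 are the glucocorticoid-induced members. Klf9 (chromosome 19, 23141226 to 23166911, mm10) had 17.2, 0.630 and 18.6 CPM across the controls, against 32.4, 3.19 and 27.1 with Foxp1 deficiency. Control library 2 held 6 counts and Foxp1-deficient library 2 held 25, against 259 to 591 in the other 4. The log2 fold change was 0.78 (SE 1.16), and it was 0.23 without control library 2. Klf15 (chromosome 6, 90462576 to 90475238, mm10), a regulator of amino acid metabolism and of podocytes, was close to the detection limit except in the libraries numbered 3. It had 7, 0 and 70 counts across the controls, against 4, 10 and 77 with Foxp1 deficiency. Levels in the libraries numbered 3 were 3.40 and 3.52 CPM, and the fold change of 0.36 (SE 1.71) was negative without control library 1 (-0.04), without control library 2 (-0.21) or without Foxp1-deficient library 3 (-0.84), and 2.76 without control library 3.

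Klf3 and Klf7 complete the set. Klf3 (chromosome 5, 64803388 to 64832901, mm10) had 86.1, 25.2 and 63.2 CPM across the controls, against 122, 33.8 and 89.3 with Foxp1 deficiency. Its groups overlapped, yet its 3 pair differences were nearly equal, at 0.50, 0.42 and 0.49 on the log2 scale. The fold change was 0.49 (SE 0.61) without the block and 0.47 (SE 0.13) with it. Klf7 (chromosome 1, 64029447 to 64122282, mm10), known from neuronal development, had 12.1, 12.4 and 11.3 CPM across the controls, against 24.3, 8.16 and 18.5 with Foxp1 deficiency. Foxp1-deficient library 2 was below all controls and the other two above them, giving a fold change of 0.51 (SE 0.51). Of its exon bases, 39.3% are shared with the antisense gene Gm26649, which has 0 counts. The file header's command has no option for strand or for overlapping features, so Klf7 may be undercounted there.

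**Figure D2:**
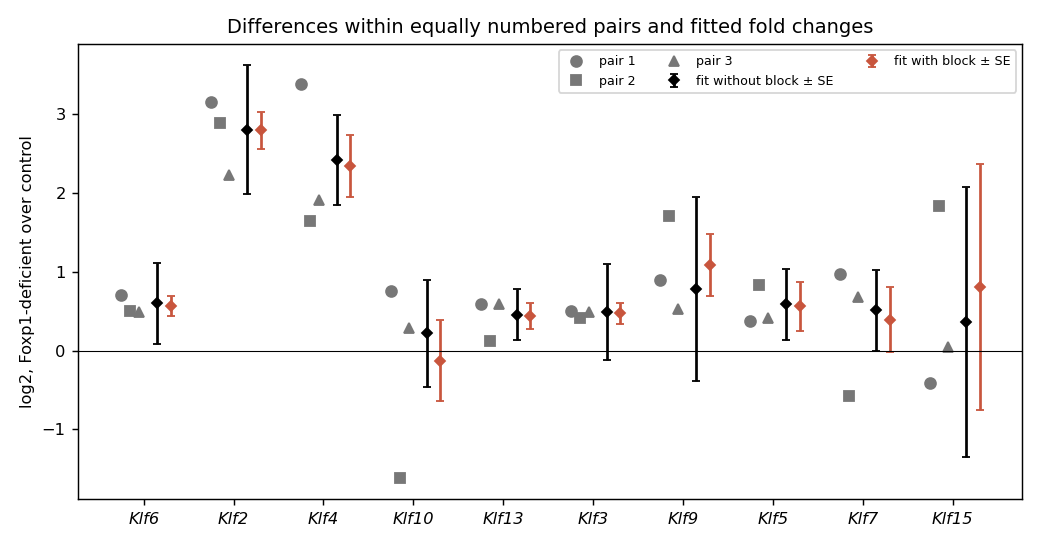
Log2 differences (Foxp1-deficient over control, 0.5 CPM added) within equally numbered pairs, beside fitted fold changes ± SE from fits without and with the replicate number as a block. Klf10 and Klf7 differ in sign in pair 2, and Klf15 does in pair 1. The error bars of Klf2, Klf3, Klf6 and Klf9 are much shorter with the block.

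Counted over the set, 4 of 10 members (Klf2, Klf4, Klf5 and Klf13) had groups that did not overlap with the Foxp1-deficient libraries higher, where 2.64% of the genes tested did. None was lower without overlap (2.11% of genes). In all 3 pairs 7 of 10 members were higher (16.5% of genes) and 0 lower (16% of genes). Scaled to library totals, 3 members had groups apart and higher (2.1% of genes) and 0 lower (2.07%), and without the libraries numbered 2 there were 9, all but Klf15 (13.1% of genes). The median log2 fold change of the 10 was 0.55, against 0.03 over all genes tested. Because Klf2 in this contrast chose the set, nothing is read from these counts.

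Over all genes, edgeR's quasi-likelihood test with Benjamini-Hochberg adjustment called 0 genes (0%) at an adjusted p under 0.05, where 103 genes had an unadjusted p below that level. With the replicate block edgeR again called 0 genes (0%), with 762 unadjusted. DESeq2 called 0.0419% of genes, all higher. With the block it called 0.79% of genes higher and 0.391% lower, or 1.18% in either direction, and limma-voom with the block called 0.0559%, all higher. These shares are the background for the tests of genes outside the set. No call is given for the members, since their values in this contrast, paired by number, were what selected the set.

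The members divided their variance between library number and genotype in different ways. Genotype took up 67.8% for Klf2, 77.0% for Klf4, 67.7% for Klf5 and 63.5% for Klf13. For Klf3, Klf6 and Klf9 the number took up 91.3%, 79.3% and 89.3%. Klf7 and Klf10 had large remainders, of 46.9% and 32.2%, which is the part where pairs disagreed. Some share falls to any split of so few libraries, and the genotype share of Klf2 follows from how the set was chosen.

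Levels between genes were compared per length, as TPM, counts per exon length scaled to a fixed total per library, from the deposited exon lengths. Over the 6 libraries the order by mean TPM was Klf6 (91.0 ± 67.4 SD), Klf2 (68.9 ± 56.7), Klf4 (46.6 ± 54.2), Klf10 (24.4 ± 17.6), Klf13 (19.4 ± 11.1), Klf3 (15.3 ± 11.3), Klf9 (13.4 ± 11.5), Klf5 (13.3 ± 5.67), Klf7 (4.11 ± 2.89) and Klf15 (1.30 ± 1.63). Few neighbours in this order were separated within libraries. Klf6 exceeded Klf2 in 3 of 6 libraries, Klf2 exceeded Klf4 in 4, Klf4 exceeded Klf10 in 3, Klf10 exceeded Klf13 in 4, Klf3 exceeded Klf9 in 4 and Klf9 exceeded Klf5 in 3. Klf13 was above Klf3, Klf5 above Klf7, and Klf7 above Klf15 in all 6.

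Several members changed place in this order between libraries. By TPM, Klf2 ranked 8, 1 and 3 among the 10 members across the controls, against 3, 1 and 1 with Foxp1 deficiency. Klf4 ranked 7, 6 and 4 across the controls, against 2, 3 and 3 with Foxp1 deficiency. Klf10 moved over as many places as Klf4, with ranks of 2, 4 and 2 and then 4, 7 and 4, while Klf15 was last in every library. As a share of the members' summed TPM, Klf2 made up 4.17%, 30.8% and 10.9% across the controls, against 16.7%, 70.4% and 26.0% with Foxp1 deficiency. Klf6, the leading member of controls 1 and 3, went from 48.0%, 26.5% and 36.4% to 32.9%, 11.5% and 25.3%. Summed over the 8 members other than Klf2 and Klf4, CPM were 395, 200.0 and 321 across the controls, against 626, 237 and 453 with Foxp1 deficiency. Those sums overlapped between the groups.

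**Figure D3:**
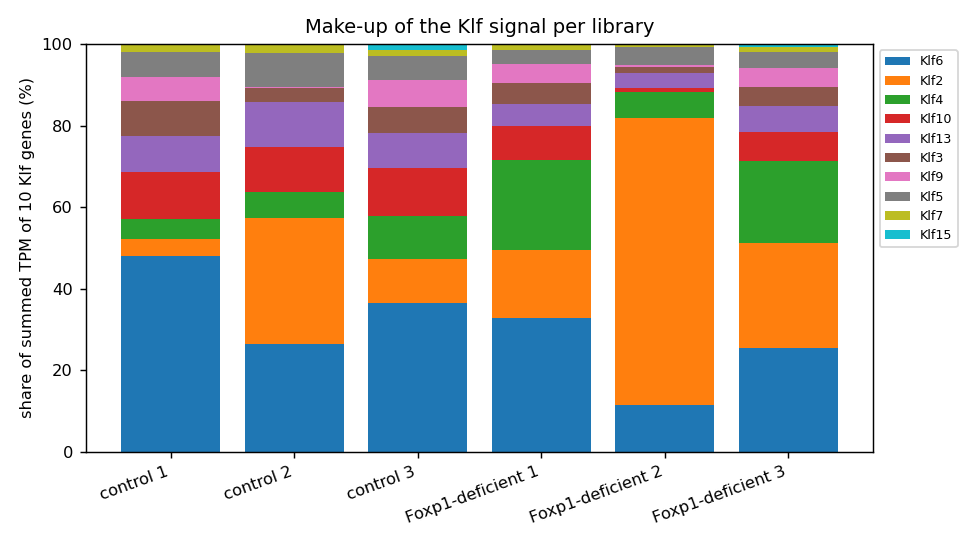
Stacked bars give each Klf gene's share (%) of the summed TPM of the 10 genes in each library. Klf2 makes up 70.4% in Foxp1-deficient library 2 and 4.17% in control library 1.

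The genes whose profile over the 6 libraries was closest to that of a member were found by the root mean square difference of log2 CPM, each gene centred on its own mean, among 10706 genes averaging at least 5 CPM. For Klf2 these were Adamtsl5 (0.34), the connexin gene Gjb5 (0.51), the basal keratin gene Krt14 (0.57), Tmem51 (0.63) and Proser2 (0.65), where the median over all genes was 1.78. Adamtsl5 had 6.11, 31.8 and 12.8 CPM across the controls, against 34.0, 218 and 39.4 with Foxp1 deficiency, with the same high library 2 as Klf2. For Klf4 they were Fndc1 (0.40), Vat1l (0.41), the microtubule gene Map6 (0.52), Trim16 (0.53) and the protease-activated receptor gene F2rl1 (0.53), against a median of 1.40. The nearest to Klf6 were Scd2, a fatty acid desaturase gene (0.09), the kinesin gene Kif1b (0.09), Frmd4b (0.11), Chp1 (0.12) and Col4a3bp (0.12), against a median of 0.77. Among the 9 members compared, which leave out Klf15, Klf3 and Klf6 (0.24) and Klf7 and Klf13 (0.30) were nearest to each other, and Klf2 and Klf9 (2.71) were farthest apart.

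The other Klf genes were tested in the same fit. By edgeR's quasi-likelihood test, 0 of 5 passed (0% of genes), with 4 higher and 1 lower and a median log2 fold change of 0.47. Klf16 had 31.5, 42.3 and 35.0 CPM across the controls, against 45.1, 73.4 and 32.3 with Foxp1 deficiency (log2 fold change 0.47, SE 0.41). Klf11, like Klf10 an early gene of TGF-beta, had 15.9, 12.2 and 10.6 CPM across the controls, against 22.1, 12.1 and 11.6 with Foxp1 deficiency (0.24, SE 0.47). Both overlapped between groups. Klf8, Klf12 and the erythroid factor Klf1 had 0 counts in both libraries numbered 2, and reached at most 3.68, 1.56 and 2.77 CPM. Klf14 and Klf17 had 0 counts in all 6. The related Sp factors also gave 0 of 4 tested, with a median of 0.05. Sp1 had means of 72.0 ± 31.6 and 72.8 ± 47.7 CPM, and Sp3 89.2 ± 65.1 and 94.9 ± 63.1 (SD, n = 3 each). Sp2 averaged 14.2 ± 12.4 and 15.5 ± 8.996 CPM, and Sp4 4.55 ± 2.61 and 3.38 ± 2.93.

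Genes known to act upstream of Klf2 and Klf4 were counted from pathway lists. Of 9 genes of the ERK5 and MEF2 route, 0 passed edgeR's test (0% of genes), with 6 higher and 3 lower and a median log2 fold change of 0.07. Mef2d had 51.8, 27.1 and 76.8 CPM across the controls, against 83.1, 55.2 and 91.6 with Foxp1 deficiency. Map2k5, the kinase gene directly upstream of ERK5, had 19.1, 36.9 and 21.0 against 20.2, 86.9 and 18.5 CPM, so that its library numbered 2 was the highest of each group. Mef2a averaged 75.0 ± 28.2 and 66.8 ± 34.0 CPM, and Hdac5, a deacetylase gene whose product holds MEF2 factors inactive, 78.6 ± 10.5 and 63.5 ± 19.4 (SD, n = 3 each). All 4 genes overlapped between the groups.

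The cerebral cavernous malformation genes gave 0 of 7 by edgeR, with 3 higher and 4 lower and a median of -0.03. Heg1, the membrane receptor gene of the complex, had 395, 183 and 219 CPM across the controls, against 670, 162 and 345 with Foxp1 deficiency. Krit1 had means of 44.5 ± 9.53 and 43.6 ± 6.29 CPM, and Pdcd10 36.3 ± 6.63 and 38.1 ± 13.5 (SD, n = 3 each). Rap1a averaged 60.6 ± 26.4 and 51.0 ± 25.9 CPM, and Itgb1bp1 24.9 ± 9.08 and 22.2 ± 3.76. Ccm2 of the same complex had 8542 CPM in control library 1 and between 33.3 and 54.9 in the other 5, so its group means are set by that library.

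Flow sensors gave 0 of 11 by edgeR (5 higher, 6 lower, median -0.07). The 4 of lowest p were all lower in mean: Pecam1 and Cdh5, described below with the endothelial markers, Kdr at 5.98 ± 3.19 and 2.83 ± 1.78 CPM, and the semaphorin receptor gene Plxnd1 at 17.5 ± 10.8 and 8.11 ± 6.90 (SD, n = 3 each). Piezo1, a mechanically gated channel gene, had 117, 6.41 and 171 CPM across the controls, against 207, 11.9 and 260 with Foxp1 deficiency. The pair differences were 0.82, 0.84 and 0.60 on the log2 scale, and DESeq2 with a block called it higher (0.79% of genes). The same fit called Id2, a TGF-beta early gene, lower (0.391% of genes). Id2 had 130, 81.5 and 116 CPM across the controls, against 84.9, 48.1 and 69.9 with Foxp1 deficiency. Of forkhead genes 0 of 7 passed. Foxo6 had 4.12, 3.26 and 5.93 CPM across the controls, against 7.07, 25.8 and 18.1 with Foxp1 deficiency, without overlap, at a log2 fold change of 1.93 (SE 0.63, edgeR's quasi-likelihood test, adjusted p = 0.9998). Foxp2, a relative of Foxp1, had 5.85, 8.40 and 4.86 against 3.96, 3.70 and 4.35 CPM, lower without overlap. Foxo1 averaged 12.2 ± 5.25 and 10.6 ± 3.20 CPM.

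Of genes reported downstream of the members, endothelial Klf2 targets gave 0 of 14 by edgeR (6 higher, 8 lower, median -0.05). Tek, the angiopoietin receptor gene and the target of lowest p, had 108, 57.8 and 64.6 CPM across the controls, against 127, 113 and 118 with Foxp1 deficiency. Its groups did not overlap, at a log2 fold change of 0.64 (SE 0.37). Nov had 3.26, 0 and 3.06 against 11.7, 11.2 and 6.32 CPM, also without overlap. Adm, encoding adrenomedullin, averaged 19.04 ± 5.22 and 11.2 ± 6.24 CPM, and Asl, of the urea cycle, 52.4 ± 24.7 and 82.4 ± 58.9 (SD, n = 3 each). Nos3, the endothelial nitric oxide synthase gene, had 1.53, 0 and 1.70 against 0.226, 2.04 and 3.02 CPM, and Thbd, encoding thrombomodulin, averaged 3.31 ± 1.33 and 3.24 ± 2.30. Of the lymphocyte targets only S1pr1 could be tested, with means of 6.21 ± 4.93 and 2.26 ± 2.62 CPM.

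The glucocorticoid response list gave 0 of 8 by edgeR (4 higher, 4 lower, median 0.01). Tsc22d3, a glucocorticoid-induced leucine zipper gene, had 20.6, 19.4 and 16.8 CPM across the controls, against 33.0, 28.1 and 26.3 with Foxp1 deficiency, higher without overlap. The clock gene Per1 averaged 17.9 ± 6.77 and 13.3 ± 11.5 CPM, the phosphatase gene Dusp1 28.1 ± 10.0 and 33.4 ± 15.4, and the metallothionein gene Mt1 70.1 ± 74.7 and 123.2 ± 168 (SD, n = 3 each). Metabolic targets of Klf15 gave 0 of 8 (3 higher, 5 lower, median -0.08). Got2, an aminotransferase gene, averaged 182 ± 48.6 and 137 ± 33.4 CPM, whereas Slc2a4, Gpt and Tat each averaged below 7 CPM in both groups.

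TGF-beta early genes gave 0 of 10 by edgeR (4 higher, 6 lower, median -0.16). Id3 had 89.0, 115 and 135 CPM across the controls, against 58.7, 79.6 and 81.8 with Foxp1 deficiency, lower without overlap. Id1 averaged 115 ± 68.8 and 72.0 ± 25.4 CPM, and the inhibitory Smad gene Smad7 40.9 ± 11.6 and 33.2 ± 14.6 (SD, n = 3 each). Immediate-early genes, with which Klf6 and Klf10 are induced, gave 0 of 18 (13 higher, 5 lower, median 0.17). Their summed level overlapped between groups, at 753 to 961 CPM in controls and 936 to 1065 in Foxp1-deficient libraries. Fosl2, of lowest p, had 118, 95.2 and 140.0 against 198, 119 and 175 CPM and was higher in all 3 pairs. Jund averaged 118 ± 69.2 and 172 ± 145 CPM, Nr4a1 10.7 ± 7.22 and 14.9 ± 7.76, and Atf3 12.4 ± 3.15 and 15.4 ± 6.62. Egr1 averaged 75.4 ± 26.3 and 75.7 ± 21.3 CPM, and Jun 71.5 ± 27.2 and 79.6 ± 33.0.

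The corepressors and coactivators of KLFs gave 0 of 14 by edgeR (7 higher, 7 lower, median 0.00). Ctbp1, a corepressor gene, had means of 233 ± 34.7 and 189 ± 46.9 CPM (SD, n = 3 each). Sap30 and Hdac2, of the Sin3 deacetylase complex, averaged 31.8 ± 9.64 and 24.0 ± 8.03 CPM and 141 ± 53.0 and 118 ± 45.8 CPM, and Fbxw7, a ubiquitin ligase gene, 20.2 ± 4.15 and 24.2 ± 6.17. Of the partners of Klf4 in pluripotency only Myc could be tested, at 53.8 ± 33.3 and 68.1 ± 41.7 CPM, and Pou5f1 had 0 counts.

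Markers of cell types that express Klf2 or Klf4 were read beside these members. Endothelial markers were lower for 7 of 11 (Pecam1, Cdh5, Kdr, Tie1, Emcn, Plvap and Eng) and higher for 4 (Tek, Flt1, Esam and Egfl7), with a median log2 fold change of -0.89. Their summed level ran from 113 to 229 CPM in controls and from 157 to 217 in Foxp1-deficient libraries. The markers did not share a pattern over libraries. Pecam1 had 16.5, 4.62 and 17.0 CPM across the controls, against 1.47, 1.40 and 9.61 with Foxp1 deficiency, lower in each pair, and Cdh5 had 11.4, 0 and 15.8 against 1.02, 3.95 and 2.84. Tek, the most abundant of the 11, was higher in each pair, by log2 differences of 0.24, 0.96 and 0.87. Tek alone held 108, 57.8 and 64.6 CPM of the control sums and 127, 113 and 118 of the Foxp1-deficient sums. Tie1, Emcn and Plvap had 0 counts in both libraries numbered 2, whereas Egfl7 was highest there, at 17.7 and 22.4 CPM against 5.15 to 7.68 in the other 4. The part of endothelial cells in the levels of Klf2 and Klf4 was not tested. Macrophage and leukocyte markers were lower for 12 of 12, at summed levels of 342 to 1214 and 61.9 to 667 CPM. T cell markers summed to 13.3 to 15.02 and 6.84 to 9.69 CPM, and Cd3e had 0 counts in all libraries. Stroma and fibroblast markers had by far the largest sums of the marker lists. They summed to 24160, 26880 and 28060 CPM across the controls, against 21830, 12730 and 24660 with Foxp1 deficiency. Of 12 tested, 5 were higher and 7 lower, with a median of -0.15. The part of stromal cells in the levels of the members was not tested.

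Markers of mesothelium, the covering epithelium of body cavities and organs, were higher for 9 of 10, with a median of 0.76. Their sum was 2569, 3608 and 2346 CPM across the controls, against 4213, 8228 and 4115 with Foxp1 deficiency. The sums did not overlap between the groups and the library numbered 2 was the highest of each, as for Klf2, but single markers differed in this. Of the 10 markers, 2 had groups apart and higher (2.64% of genes tested). Upk3b had 784, 1030 and 527 CPM across the controls, against 948, 2640 and 957 with Foxp1 deficiency. Msln had 174, 646 and 428 against 420, 1594 and 758.5 CPM, and both overlapped. Sums of 13 collecting duct genes overlapped but were also highest in library 2 of each group (840 and 2545 CPM, of which Krt7 820 and 2505). Urothelium sums were apart too (0 to 2.96 and 5.03 to 7.52 CPM), but they were low and mostly Krt20. Krt20 had 2.86, 0 and 1.56 CPM across the controls, against 4.92, 5.61 and 3.71 with Foxp1 deficiency. Upk2, Upk3a and Krt5 of that list stayed at or below 0.292 CPM in every library. Krt8 had 185, 322 and 201 CPM across the controls, against 640, 744 and 387 with Foxp1 deficiency, and Krt19 177, 467 and 107 against 437, 1793 and 233. Lrrn4 went the other way over libraries, with 402, 115 and 324 against 420.1, 86.3 and 590 CPM, and Bnc1 and Wt1 were likewise lowest in the library numbered 2 of each group. In pair 2, Lrrn4, Bnc1 and Muc16 were lower with Foxp1 deficiency, by log2 differences of -0.41, -0.93 and -1.80. The part of mesothelial cells in the levels of Klf2 and Klf4 was not tested. A list of 16 stratified epithelium genes, made after Krt14 and Gjb5 were seen, gave 5 higher and 4 lower of 9 tested. Its summed level was 89.4 to 158 CPM in controls and 242 to 498 in Foxp1-deficient libraries, with Krt14 at 18.5, 30.8 and 36.7 against 126, 325 and 161. Sfn, also abundant on the list, overlapped between groups, at 59.7, 90.6 and 44.8 against 96.4, 107 and 41.7 CPM. The list was made around Krt14 and Gjb5, found by their closeness to Klf2, so nothing is read from its sum. Its defining genes Krt5, Krt15, Krt1, Dsg3 and Flg stayed at or below 0.183 CPM in every library.

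**Figure D4:**
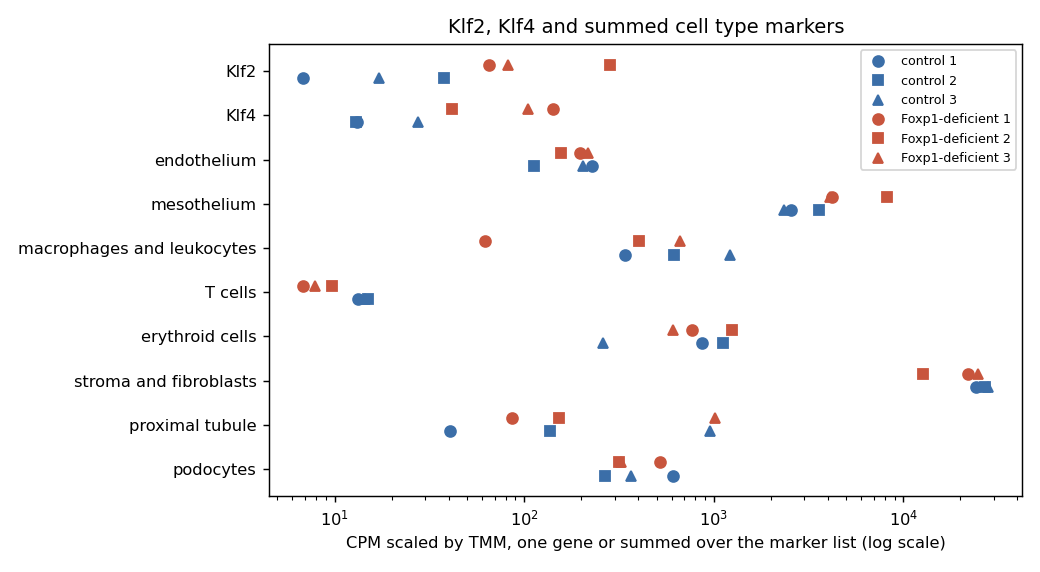
TMM-scaled CPM (log axis) of Klf2 and Klf4 and summed CPM of marker lists, 1 point per library. The mesothelium sums do not overlap between groups (2346 to 3608 and 4115 to 8228 CPM), whereas the endothelium sums do. The T cell sums do not overlap either and are lower with Foxp1 deficiency.

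The fold changes kept their sign to different degrees when the processing was varied over 19 fits. Klf2, Klf3, Klf4, Klf5, Klf6, Klf7, Klf9 and Klf13 were above 0 in all 19. Klf10 was above 0 in 14 of 19 and Klf15 in 12 of 17. The fits reuse the same 6 libraries, and Klf2 in this contrast chose the set, so these signs support nothing. Klf3 and Klf6 had values of 0.07 and 0.16 without Foxp1-deficient library 1, whereas the blocked fits that left out a pair kept them at 0.46 to 0.50 and 0.49 to 0.61.

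**Figure D5:**
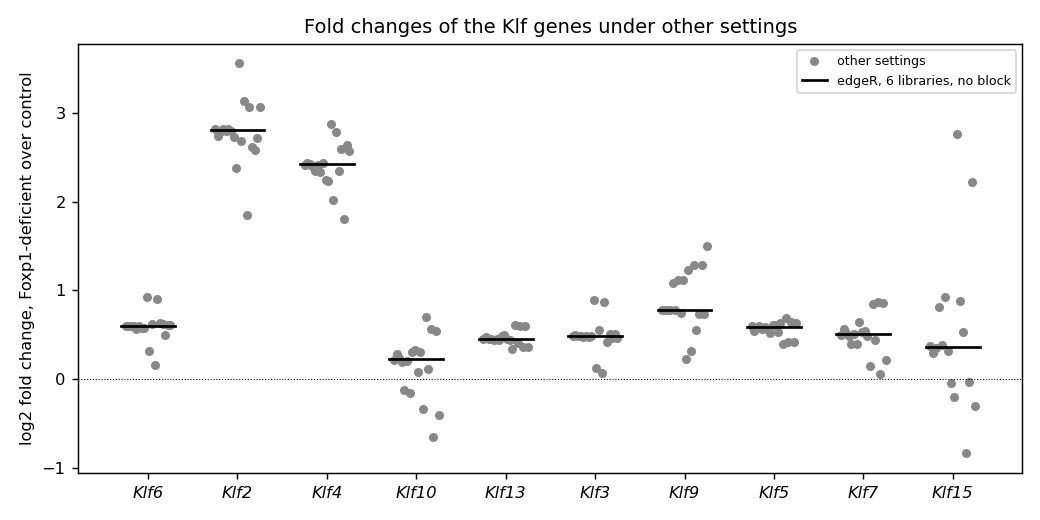
Log2 fold changes of each Klf gene under the reported edgeR fit (bar) and under other settings (points). Klf2 lies between 1.85 and 3.56 and Klf4 between 1.80 and 2.88, while Klf10 and Klf15 lie on both sides of 0.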

How the data were processed

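The authors deposited raw counts of fragments per gene symbol in 6 libraries, which per the file headers came from featureCounts 1.5.1 run on read pairs, with exons of an mm10 annotation (version 86). STAR and DESeq2 are among the tools named per the submitters' processing notes, without roles, and trimming and alignment settings were not given in the sources used here. Deposited exon lengths in bases, another column of the authors' table, were used only for TPM. Groups and numbers came from sample titles.

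The main test of the counts was that of edgeR 4.0.16 (R 4.3.3, TMM, filterByExpr, two-sided quasi-likelihood F test, Benjamini-Hochberg over all genes, threshold 0.05), with DESeq2 1.42.0 and limma 3.58.1 (voom) as alternatives. Log2 pair differences add 0.5 CPM. Limits from 3 counts describe counting error alone, because no molecular identifiers are described and reads may then be copies. The procedure was tested on simulated data.

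The members and gene lists were chosen with earlier results of these data known, and the stratified epithelium list after its genes' values were seen. The rule for named genes takes Foxp1, all members, other Klf and Sp genes of at least 1 CPM in 3 libraries, up to 4 genes of lowest p per list, the 5 most similar genes to Klf2, Klf4 and Klf6, and defining markers. Genes outside it, such as Piezo1, Nos3, Thbd, Krit1, Pdcd10, Egr1, Jun, Egfl7, Lrrn4, Bnc1, Wt1, Muc16, Upk3b, Msln, Krt7 and Lrp2, were chosen after their values were seen. The same holds for Aqp2, Slc4a1, Krt20 and Sfn.

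Equally numbered libraries deviated together from their group means, with correlations over genes of r = 0.66, 0.63 and 0.68, so the numbers may mark pairs, though no label states what a number marks. The main test has no block, and blocked fits are alternatives.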

Additional observations from a re-analysis of the deposited data

How the results depend on the processing

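The count of genes called by edgeR, 0 higher and 0 lower, was also 0 with RLE factors, library totals, no or a stricter filter, the replicate block, each library left out (0 to 0) and both libraries numbered 2 left out. DESeq2 called 6 higher. With a replicate block, DESeq2 called 113 higher and 56 lower (1.18% of genes), and limma-voom called 8 higher. The DESeq2 calls held 2 of the Sp and pathway genes (Id2 and Piezo1), and nothing is read from these 2. Blocked edgeR fits without pair 2 called 28 higher and 2 lower, and without pair 3 they called 6 higher. No setting called a Klf gene outside the set. As single libraries were left out, the log2 fold change of Klf2 ran from 1.85 to 3.56 and that of Klf4 from 2.02 to 2.88. The replicate block moved the log2 fold change of Klf2 from 2.80 to 2.79 and changed no edgeR call over all 6 libraries. Members with groups apart and higher went from 4 to 9 without the libraries numbered 2, where 2 libraries a group separate more easily, and to 3 with library totals, both chosen after seeing the data. By CPM without length Klf3 ranked 3 and Klf4 ranked 5 of 10. Low counts limit the precision for Klf15 in the libraries numbered 1 and 2 (0 to 10 counts) and for Klf9 in those numbered 2 (6 and 25 counts).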
